A study of Homo sapiens with 12 samples.

Results

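Chromosomes 13 and 22 of MDA-MB-231 cells were almost free of called dimethylation of lysine 9 of histone H3 (H3K9me2), so they show how acetylation of the same residue (H3K9ac) was laid out where its counterpart was hardly called. Members were all H3K9ac intervals on these 2 chromosomes in the 4 library lists and the 2 reproducible sets, 10751 of 364518 intervals, together with the 8 H3K9me2 islands found there, of 52174 in the 4 island lists. The chromosomes were selected on their H3K9me2 island share, and no test was made of it. Island length came to 0% of the length of chromosome 13 in all 4 lists and to between 0.0328% and 0.0584% of that of chromosome 22. The nearest autosomes outside the choice were chromosome 16, with 0.111% to 0.413%, and chromosome 15, with 0.309% to 0.440%, and the mean over the 4 lists ran up to 23.5% on the other autosomes. As length of a chromosome served the distance from its first to its last H3K9ac peak, 96.0 Mb on chromosome 13 and 35.1 Mb on chromosome 22 (hg19), and islands were counted wherever they lay on the chromosome. On chromosome 22 some of them lie just before the first H3K9ac peak, so their share is a ratio of lengths and not a part of that distance.

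MDA-MB-231 is a human triple negative breast adenocarcinoma line. Treated cells received 500 µM DETA/NO, a donor that releases nitric oxide slowly, for 24 h after overnight serum starvation, and untreated cells were the control against which nitric oxide effects on both marks were to be judged. There were 2 biological replicates of each condition and mark, and 4 input samples whose values were not used here. The lists hold positions and a score per interval, not reads, so depth is unknown, and the 4 H3K9ac lists differed in length with 79538 and 69151 peaks in treated replicates 1 and 2, against 120630 and 59724 in untreated replicates 1 and 2.

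H3K9ac is placed by acetyltransferases at active promoters and enhancers and is removed by histone deacetylases. H3K9me2 is placed mainly by the G9a and GLP methyltransferases over broad silent stretches, often gene-poor and near the nuclear lamina, and is removed by demethylases such as those of the KDM3 family. A single lysine cannot carry both marks at once. Chromosomes 13 and 22 are both acrocentric, with short arms of repeated sequence that the hg19 assembly leaves unsequenced; chromosome 13 is large and poor in genes with long deserts, while chromosome 22 is small and rich in genes. RefSeq's GRCh38.p14 table lists 338 protein-coding genes on chromosome 13 and 451 on chromosome 22.

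All H3K9me2 islands called on these chromosomes lay at the start of the assembled long arm of chromosome 22. Islands of the 4 lists merged into 3 stretches. The first, chr22:16099001-16112500, was called in every list, over 11500 and 7000 bp in treated replicates 1 and 2 and over 8500 and 10500 bp in untreated replicates 1 and 2. The second, chr22:16115001-16117000, was an island of untreated replicate 2 alone, where it took all 2000 bp. The third, chr22:16344001-16352000, was called over its full 8000 bp in treated replicate 2 and in both untreated replicates and had no island in treated replicate 1. Within their own lists, the authors' scores of these islands ranked between percentile 1.28 and 51.1 in treated cells and between percentile 0.903 and 89.3 in untreated cells, so the same stretch was near the bottom of one list and near the top of another. The first stretch held no H3K9ac peak. The third held 1 narrow peak in treated replicate 2 (chr22:16351604-16351773) and 1 in untreated replicate 1 (chr22:16350761-16351026), both of low rank (percentile 32.5 and 19.3), and the nearest reproducible H3K9ac region lay 1213 kb away in treated cells and 1287 kb away in untreated cells.

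In single libraries, H3K9ac peaks on chromosome 13 were the sparsest of all 22 autosomes and those on chromosome 22 were among the denser ones. Chromosome 13 had 1244 and 944 peaks in treated cells, against 1661 and 859 in untreated cells. The untreated pair spanned the treated pair, so peak number did not separate the conditions (exact permutation test over 4 libraries, two-sided p = 1, where the smallest p it allows is 0.33). Without untreated replicate 1, whose list is the longest, the difference of −166 peaks turned to 235. Chromosome 22 had 1465 and 1207 peaks in treated cells, against 1425 and 763 in untreated cells, again overlapping (exact permutation p = 0.667), and without untreated replicate 2 the difference of 242 turned to −89. Per megabase this came to 12.95 and 9.83 peaks on chromosome 13 in treated cells and 17.3 and 8.94 in untreated cells, the lowest density of any autosome in each of the 4 libraries. Chromosome 22 had 41.8 and 34.4 peaks per Mb in treated cells, against 40.6 and 21.7 in untreated cells, which ranked 3rd and 4th of 22 autosomes in the treated lists and 10th and 9th in the untreated ones.

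**Figure D1:**
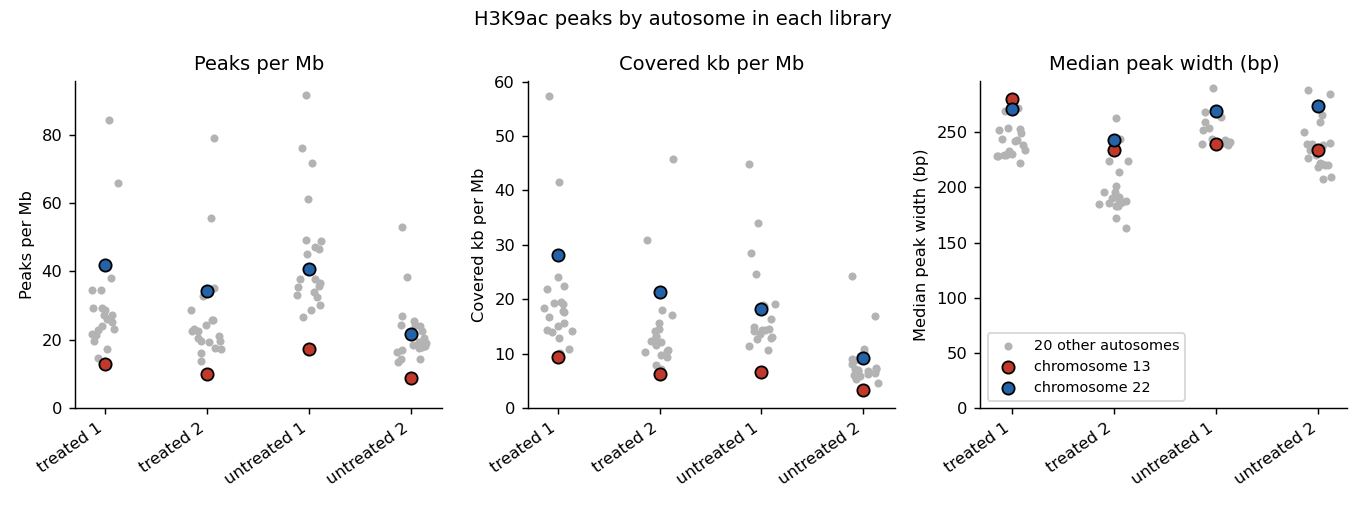
H3K9ac peaks per Mb, kilobases covered per Mb and median peak width in bp (vertical axes) for each of the 2 treated and 2 untreated libraries (horizontal axis), with 1 point per autosome. Chromosome 13 (red) is the lowest autosome in density and cover in all 4 libraries, and chromosome 22 (blue) stands higher among the 20 other autosomes (grey) in density and cover, though not in median width, in the treated libraries than in the untreated ones.

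Covered length showed more of a difference than raw peak number. Peaks covered 898 and 601 kb of chromosome 13 in treated cells, against 641 and 317 kb in untreated cells, a mean of 749 ± 210 kb against 479 ± 229 kb (SD, n = 2 each), and the libraries overlapped (exact permutation p = 0.667). On chromosome 22 they covered 989 and 747 kb in treated cells, against 642 and 321 kb in untreated cells, a mean of 868 ± 171 kb against 481 ± 227 kb (SD, n = 2 each). The conditions did not overlap there, with a p of 0.33 that is the smallest the exact permutation test can give. Because the lists differ in length, cover was also expressed relative to the other 20 autosomes of the same library, as the log2 ratio of covered kilobases per Mb. For chromosome 13 this ratio was −0.97 and −1.09 in treated cells, against −1.37 and −1.29 in untreated cells, so each treated library was above each untreated one by a mean of 0.30, or 1.23-fold. For chromosome 22 it was 0.62 and 0.68 in treated cells, against 0.09 and 0.18 in untreated cells, a mean difference of 0.51, or 1.43-fold. Both differences had the smallest exact permutation p of 0.33 and stayed above 0 when any 1 library was left out, between 0.24 and 0.36 for chromosome 13 and between 0.47 and 0.56 for chromosome 22. Chromosomes 15 and 16 moved the same way. Together they had 18.5 and 13.4 covered kb per Mb in treated cells, against 12.6 and 6.40 in untreated cells. All 20 other autosomes together had 18.3 and 13.3 in treated cells, against 17.2 and 8.08 in untreated cells. Against only the 3 autosomes nearest to chromosome 13 in peak density, its difference was 0.18. On the same relative scale, peak number on chromosome 13 was −1.12 and −1.32 in treated cells, against −1.31 and −1.24 in untreated cells, and overlapped. On chromosome 22 it was 0.57 and 0.49 in treated cells, against −0.08 and 0.04 in untreated cells, without overlap. That mean difference was 0.55, or 1.46-fold, slightly more than for cover, with the smallest exact permutation p of 0.33.

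The median peak was of similar width in both conditions, but wide peaks were more frequent in treated cells. Median widths on chromosome 13 were 280.5 and 234 bp in treated cells, against 239 and 234 bp in untreated cells, and on chromosome 22 they were 271 and 243 bp in treated cells, against 269 and 274 bp in untreated cells. Peaks of at least 1000 bp made up 21.9% and 22.5% of the chromosome 13 peaks in treated cells, against 5.72% and 5.47% in untreated cells. On chromosome 22 they made up 20.2% and 20.7% in treated cells, against 8.77% and 7.21% in untreated cells. The conditions were well apart on both chromosomes, as they were on the other 20 autosomes together, where wide peaks made up 18.7% and 16.9% in treated cells, against 6.39% and 6.95% in untreated cells.

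The reproducible sets, 1 per condition, each built by the authors from both libraries of a condition, differed more in number than the library lists did. Chromosome 13 had 350 regions in the treated set and 158 in the untreated set, and chromosome 22 had 487 in the treated set and 188 in the untreated set. The treated count was 2.22 times the untreated count on chromosome 13 and 2.59 times on chromosome 22, the highest ratio of the 22 autosomes. Chromosomes 15 and 16 followed with 2.21 and 1.94, and over the 20 other autosomes together the ratio was 1.44. With the treated set reduced to as many top-scoring regions as the untreated set holds, a setting chosen after the values were seen, the ratios were 1.57 on chromosome 13 and 1.77 on chromosome 22, against 0.976 over the other autosomes. With 1 set per condition there is no replicate of these counts and no test.

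Set against gene number, the contrast lay in the untreated set. The treated set held 104 regions per 100 protein-coding genes on chromosome 13 and 108 on chromosome 22, near the 107 of the other autosomes together and inside their range of 88.6 to 131. The untreated set held 46.7 regions per 100 genes on chromosome 13 and 41.7 on chromosome 22, below every other autosome, against 74.7 over the other autosomes together. Chromosomes 15 and 16 were next lowest in the untreated set, with 46.8 and 49.4. The gene counts come from RefSeq's GRCh38.p14 table and the regions are on hg19, so only whole chromosomes were compared.

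**Figure D2:**
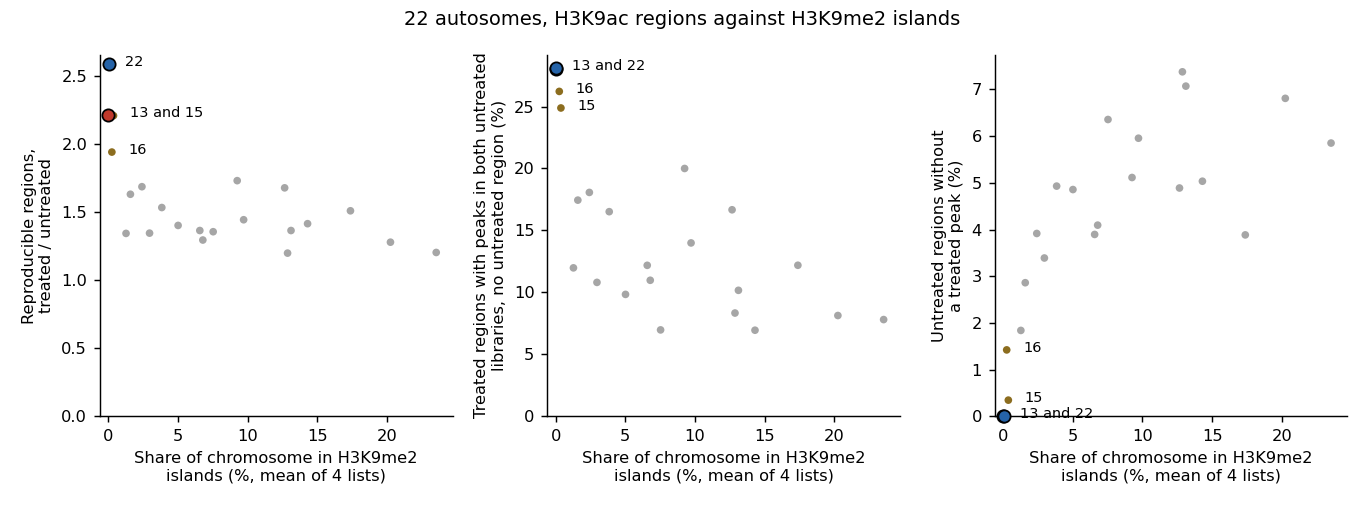
Each point is 1 of the 22 autosomes, placed by the mean share of the chromosome in H3K9me2 islands (percent, horizontal axes) against the ratio of treated to untreated reproducible H3K9ac regions, the share of treated regions with peaks in both untreated libraries but no untreated region, and the share of untreated regions without a treated peak. Chromosomes 13 and 22, with 15 and 16 next to them, lie at the top of the first 2 panels and at the bottom of the last.

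The excess of treated regions ran along the whole of both chromosomes. Of the windows of 10 Mb that held any treated region, 10 of 10 on chromosome 13 and 5 of 5 on chromosome 22 had more treated than untreated regions. The treated set was the larger on every autosome, with a lowest ratio of 1.20 on chromosome 4. Windows of the other autosomes were not counted, so these counts have no background. The fullest window was chr22:30000001-40000000, with 168 treated and 59 untreated regions. On chromosome 13 the window chr13:20000001-30000000 held 60 treated and 27 untreated regions. The emptiest populated window, chr13:60000001-70000000, held 3 treated regions and 1 untreated region. The longest stretch of chromosome 13 without a region was chr13:80917894-91998915 in the treated set (11.1 Mb) and chr13:60972422-73300958 in the untreated set (12.3 Mb). On chromosome 22 the longest empty stretch was 2.48 Mb in the treated set and 3.06 Mb in the untreated set, both within the last few megabases of the chromosome.

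Regions that treated cells gained outright were about as frequent on chromosomes 13 and 22 as in the whole treated set when an overlap of 1 bp decided, but not under every other rule. A treated region was called gained when no peak of either untreated library met it by 1 bp, and 15.1% of all treated regions were gained. On chromosome 13 it was 53 of 350 regions (15.1%, Wilson 95% interval 11.8% to 19.3%) and on chromosome 22 it was 77 of 487 (15.8%, 12.8% to 19.3%), shares that sit at the background; these and later intervals cover counting error only. Untreated replicate 1 weighed most on this count: judged without it, 93 and 153 regions were gained, 26.6% and 31.4%, against 27.8% of all treated regions. With at least 50% cover required for a region to count as shared, 45.1% on chromosome 13 and 42.5% on chromosome 22 were gained, against 37.7% of all treated regions. With the treated set reduced to the size of the untreated one, it was 8 of 248 on chromosome 13 (3.23%) and 17 of 332 on chromosome 22 (5.12%), against 2.62% of all. In the other direction, 4.40% of all untreated regions were lost, meaning that they met no peak of either treated library. None of the 158 untreated regions on chromosome 13 and none of the 188 on chromosome 22 was lost. Taken as 3 divided by the number of regions, a count of 0 allows shares of up to 1.90% and 1.60%. The Wilson 95% upper limits were wider, 2.37% and 2.00%. Over both chromosomes 0 of 346 regions were lost, which allows up to 0.867% (Wilson upper limit 1.10%), against 4.50% over the other autosomes. Chromosomes 15 and 16 again came closest, with 1 of 289 and 6 of 422 regions lost (0.346% and 1.42%).

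Many treated regions of both chromosomes already had peaks in untreated cells without belonging to the untreated set. Of the treated regions on chromosome 13, 98 (28%, Wilson 95% interval 23.6% to 32.9%) met peaks in both untreated libraries and no region of the untreated set. On chromosome 22 there were 137 of them (28.1%, 24.3% to 32.3%). The share was 14.0% of all treated regions, 12.9% over the other 20 autosomes together, 26.2% on chromosome 16 and 24.9% on chromosome 15, and on the remaining 18 it did not exceed 20.0%. Treated regions that met an untreated region were correspondingly fewer, 42.9% on chromosome 13 and 36.6% on chromosome 22, against 55.9% over the other autosomes. Regions with a peak in 1 untreated library made up 14.0% on chromosome 13 and 19.5% on chromosome 22, against 15.9% over the other autosomes. The differences between chromosomes are descriptions, since chromosomes are not replicates and each condition has 1 set.

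The class was prominent within bands of equal rank as well. The treated set was divided into quintiles by the authors' score. In the middle quintile, 43.8% of the 89 chromosome 13 regions and 43.4% of the 106 chromosome 22 regions had peaks in both untreated libraries without an untreated region, against 42.9% on chromosomes 15 and 16 and 21.3% over all other autosomes. In the next higher quintile the shares were 32.3% on chromosome 13 and 38.6% on chromosome 22, against 24.2% on chromosomes 15 and 16 and 11.8% over all other autosomes. In the lowest quintile, chromosome 13 had 5.56% and chromosome 22 had 18.8%, against 7.81% over the other autosomes, so chromosome 13 was not above the rest there.

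**Figure D3:**
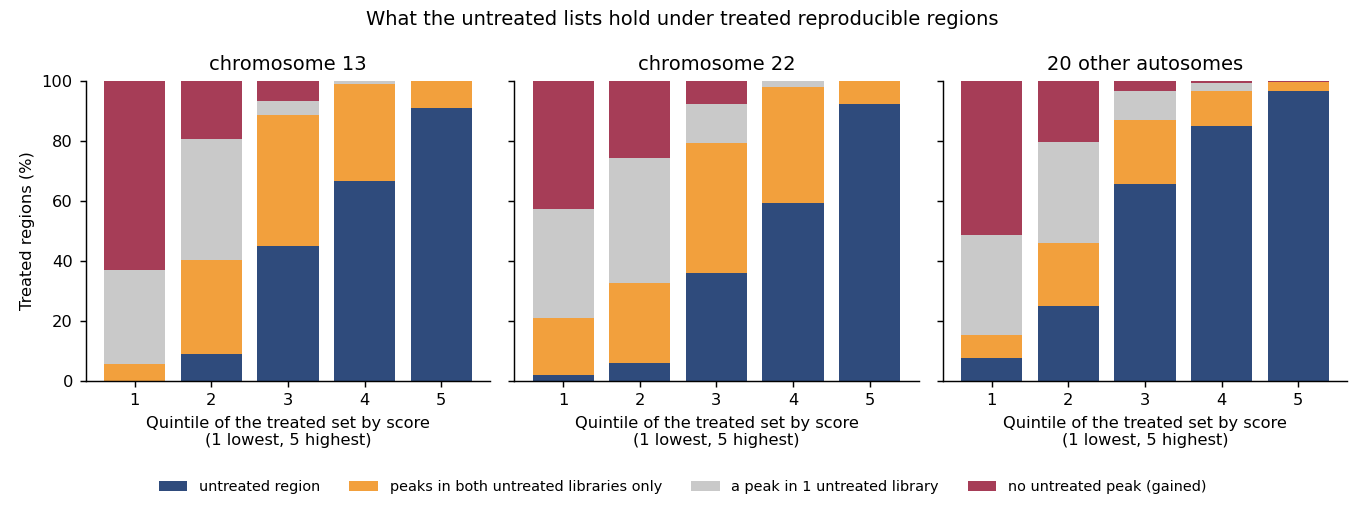
Share of treated reproducible regions (percent, vertical axis) by what the untreated lists hold at the same place, in quintiles of the treated set by score (horizontal axis), for chromosome 13, chromosome 22 and the 20 other autosomes together. The orange part, regions with peaks in both untreated libraries but no untreated region, takes 43.8% and 43.4% of the middle quintile on chromosomes 13 and 22, against 21.3% elsewhere.

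Inside regions of this class, untreated peaks covered fewer bases than treated peaks. The best-scoring untreated peak was not low in its list, and both held for the class on the other autosomes too. On chromosome 13 the median region of the class had 1702 and 1335 bp covered in the treated libraries, against 711 and 487 bp in the untreated ones. On chromosome 22 the medians were 1282 and 1110 bp in the treated libraries, against 667 and 412 bp in the untreated ones. The best untreated peak in such a region stood at a median percentile of 87.3 in untreated replicate 1 and 73.1 in untreated replicate 2 on chromosome 13, and of 86.4 and 64.0 on chromosome 22, against 86.4 and 64.0 over the other autosomes. Where a treated region did meet an untreated region, the same percentiles were 94.1 and 87.2 on chromosome 13 and 94.8 and 85.8 on chromosome 22.

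Regions present in both reproducible sets were wider in treated cells almost without exception. There were 149 such merged regions on chromosome 13 and 173 on chromosome 22. On chromosome 13 they averaged 2776 and 2262 covered bases per region in the treated libraries, against 1502 and 1216 in the untreated ones, a ratio of means of 1.85. On chromosome 22 they averaged 2576 and 2235 covered bases in the treated libraries, against 1528 and 1185 in the untreated ones, a ratio of 1.77. Over the other autosomes they averaged 2537 and 2132 covered bases in the treated libraries, against 1551 and 1236 in the untreated ones, a ratio of 1.68. In each of these 3 comparisons the conditions did not overlap and the exact permutation p was 0.33, the smallest possible. Region by region, both treated libraries covered more bases than both untreated libraries in 89.9% of all shared regions, in 144 of 149 (96.6%) on chromosome 13 and in 167 of 173 (96.5%) on chromosome 22. The reverse held for none on chromosome 13 and for 1 region on chromosome 22.

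**Figure D4:**
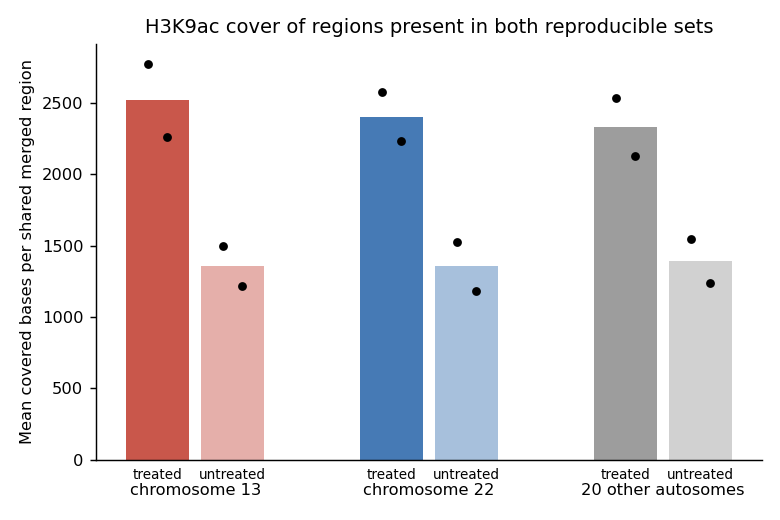
Mean number of bases covered by H3K9ac peaks per merged region present in both reproducible sets (vertical axis), for chromosome 13 (149 regions), chromosome 22 (173 regions) and the 20 other autosomes. Bars are means of 2 libraries and points are the single libraries, and in all 3 places both treated libraries lie above both untreated ones.

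A fit by limma of the covered share of all 21944 merged regions, on the arcsine square root scale with Benjamini-Hochberg adjustment at 0.05, called 24.9% of them higher and 2.97% lower in treated cells. On chromosome 13 it called 86 of 350 higher (24.6%) and on chromosome 22 it called 150 of 482 higher (31.1%), with none lower on either and none lower at an unadjusted p under 0.05. Most of these calls were regions of the treated set alone, 68 of 200 on chromosome 13 (34%) and 117 of 309 on chromosome 22 (37.9%). Of all merged regions in the treated set alone, 4127 of 9511 were called higher (43.4%). Such regions entered only through the treated set, a choice that favours higher cover in treated cells. Among regions in both sets, chromosome 13 had 18 of 149 called higher (12.1%) and chromosome 22 had 33 of 173 (19.1%), against 1322 of 11387 in all (11.6%). These calls were fragile. With regions of both sets fitted alone, none was called on the 2 chromosomes or elsewhere. At an unadjusted p under 0.05, 222 of 322 on the 2 chromosomes (68.9%) had higher cover in treated cells, against 54.1% of all shared regions. With quantile normalization none was called either way on the 2 chromosomes, while 0% of all merged regions were called higher and 2.92% lower. The full fit called 236 regions higher on both chromosomes together. Refits without 1 library leave a lone library in 1 condition. In them the median arcsine difference on both chromosomes was 0.47 without treated replicate 1 (0.41 over all merged regions) and 0.83 without treated replicate 2 (0.76). It was 0.71 without untreated replicate 1 (0.64) and 0.55 without untreated replicate 2 (0.49). The median difference over all regions was 0.58 on the arcsine scale without normalization and near 0 with quantile normalization, while on the 2 chromosomes it was 0.64 without it and 0.06 with it, so relative to the general widening the members stood little above the rest.

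The widest treated regions are examples, chosen by their width in treated cells. On chromosome 13 the widest region, chr13:80908790-80917893 (9104 bp), also had the highest score there, at percentile 98.9 of the treated set, and borders the 11.1 Mb stretch without any treated region. It was covered over 9104 and 6754 bp in the treated libraries by 1 peak each, against 3716 and 4107 bp in the untreated ones by 4 and 5 peaks, and met 2 untreated regions. The next widest, chr13:50650712-50658578, was covered over 7867 and 4926 bp in the treated libraries, against 3533 and 2298 bp in the untreated ones. The other 3 of the 5 widest on chromosome 13 were 4946 to 5213 bp wide. On chromosome 22 the widest region was chr22:46460449-46473588 (13140 bp), with 12973 and 12264 bp covered in the treated libraries, against 7233 and 6719 bp in the untreated ones, where 7 and 10 separate peaks made it up. It lies near the second widest, chr22:46447977-46454854, with 6752 and 6379 bp in the treated libraries, against 3140 and 3226 bp in the untreated ones. Both treated libraries were above both untreated ones in each of these 4 regions, which the choice of the widest treated regions favoured. The limma-adjusted p-values of the first 3 named were 0.0818, 0.123 and 0.0511, and that of the last was 0.0526, so none passed 0.05.

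The widest regions of chromosome 22 were not its highest-scoring ones. The widest of all stood at percentile 49.4 of the treated set. The highest-scoring region, chr22:41839735-41844694, stood at percentile 98.7 and was covered over 4960 and 4675 bp in the treated libraries, against 3685 and 3760 bp in the untreated ones. A narrow region, chr22:42915317-42916255, stood at percentile 97.5 with 937 and 817 bp covered in the treated libraries, against 870 and 608 bp in the untreated ones. The largest gains in cover among shared regions were those of the widest regions named above, together with chr13:31733409-31737964, which had 4556 and 3571 bp in the treated libraries, against 1490 and 1041 bp in the untreated ones, and chr22:39710570-39716944, which had 6300 and 5617 bp in the treated libraries, against 3464 and 1465 bp in the untreated ones. Their limma-adjusted p-values were 0.0701 and 0.0634.

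Gained regions were small and low in rank, as they were in the whole treated set. Their median width was 747 bp on chromosome 13 and 636 bp on chromosome 22, against 1956 bp and 1575.5 bp for the treated regions there that were not gained. The 2 lowest quintiles of the treated set held 47 of the 53 gained regions on chromosome 13 and 69 of the 77 on chromosome 22, and the 2 highest quintiles held none. The nearest untreated peak lay a median of 4.41 kb away on chromosome 13 and 4.00 kb on chromosome 22, against medians of 0.904 to 4.91 kb on the other autosomes, and 19 of 53 and 27 of 77 gained regions had one within 1 kb. The highest-scoring gained region, chr22:21771777-21771972, was narrow and isolated, with 178 and 196 bp covered in the treated libraries and none in the untreated ones, and its nearest untreated peaks lay 37.7 kb away in replicate 1 and 144 kb away in replicate 2. On chromosome 13 the highest-scoring one, chr13:113260062-113260781, had 720 and 494 bp covered in the treated libraries and none in the untreated ones, but a peak of untreated replicate 1 ended 0.081 kb from it. The gained region chr13:24152598-24153426, with 786 and 729 bp in the treated libraries, lay 0.122 kb from an untreated region. Among the 5 highest-scoring gained regions of each chromosome, the nearest untreated peak lay 0.081 to 8.83 kb away on chromosome 13 and 0.308 to 37.7 kb away on chromosome 22.

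Regions of both chromosomes ranked lower in the untreated set than in the treated set. In the treated set the median region of chromosome 13 stood at percentile 52.9 and that of chromosome 22 at 47.6, close to the 50.0 of the other autosomes. In the untreated set they stood at 40.4 and 39.2, against 50.9 over the other autosomes, and chromosomes 15 and 16 stood at 32.0 and 39.7. The top quintile of the untreated set held 8.23% of the chromosome 13 regions and 6.91% of the chromosome 22 regions, against 20.6% over the other autosomes. Treated regions that joined 2 or more untreated regions were also few, 7 on chromosome 13 (2.00%) and 13 on chromosome 22 (2.67%), against 8.53% over the other autosomes. Chromosomes 15 and 16 were like them in both respects, with 5.77% of their untreated regions together in the top quintile and 2.66% and 3.66% of their treated regions joining untreated ones. Peaks in the single untreated lists did not rank low. In untreated replicate 1 their median percentile was 65.1 on both chromosomes, against 49.4 over the other autosomes. In untreated replicate 2 it was 45.8 on chromosome 13 and 64.0 on chromosome 22, against 45.8. Chromosomes 15 and 16 together had 65.1 and 64.0 in these lists. In treated replicates 1 and 2 the median was 52.6 and 57.1 on chromosome 13. On chromosome 22 it was 52.6 and 63.7, against 49.8 and 49.4.

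The scores themselves took few values on these chromosomes. The 3 commonest scores of each list made up 30.1% and 29.98% of the chromosome 13 peaks in treated replicates 1 and 2, against 57.7% and 53.4% in untreated replicates 1 and 2. On chromosome 22 they made up 32.4% and 31.5% in treated cells, against 55.7% and 44.7% in untreated cells. On the other autosomes together they made up 14.1% and 11.4% in treated cells, against 25.4% and 24.1% in untreated cells, while chromosomes 15 and 16 together had 30.2% and 28.6% in treated cells, against 51.4% and 47.6% in untreated cells. The 763 chromosome 22 peaks of untreated replicate 2 carried 45 different scores, whereas the 690 peaks of chromosome 21 in that list carried 154. Across the 22 autosomes, the share of peaks of untreated replicate 1 with the 3 commonest scores and the share of treated regions with peaks in both untreated libraries but no untreated region had a Spearman rho of 0.94. The mean island share had a rho of −0.71 with that class of treated regions and of −0.71 with that share of commonest scores. The autosomes share the same libraries and lists, so these are descriptions. The part of the tied scores in the low number of untreated regions was not tested, and neither was that of chromosome copy number or of the input samples.

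Libraries of the same condition agreed more in treated than in untreated cells on both chromosomes. The Jaccard index, the bases covered in both libraries over the bases covered in either, was 0.583 on chromosome 13 and 0.626 on chromosome 22 between the treated libraries. Between the untreated libraries it was 0.249 on chromosome 13 and 0.314 on chromosome 22. The other autosomes ranged from 0.524 to 0.636 between the treated libraries and from 0.173 to 0.335 between the untreated ones, so both chromosomes were within the range of the rest. A difference in covered length between 2 lists limits their index, and on both chromosomes the untreated lists differed more in length than the treated ones. The 4 pairs made of 1 treated and 1 untreated library had indices of 0.244 to 0.335 on chromosome 13 and 0.273 to 0.382 on chromosome 22. On each chromosome the untreated pair was less alike than 3 of these 4 pairs. Of the peaks of untreated replicate 2, 48.2% on chromosome 13 and 65.7% on chromosome 22 met a peak of untreated replicate 1, and on chromosome 22 this was the highest share of any autosome, where the others ranged from 27.3% to 64.3%.

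**Figure D5:**
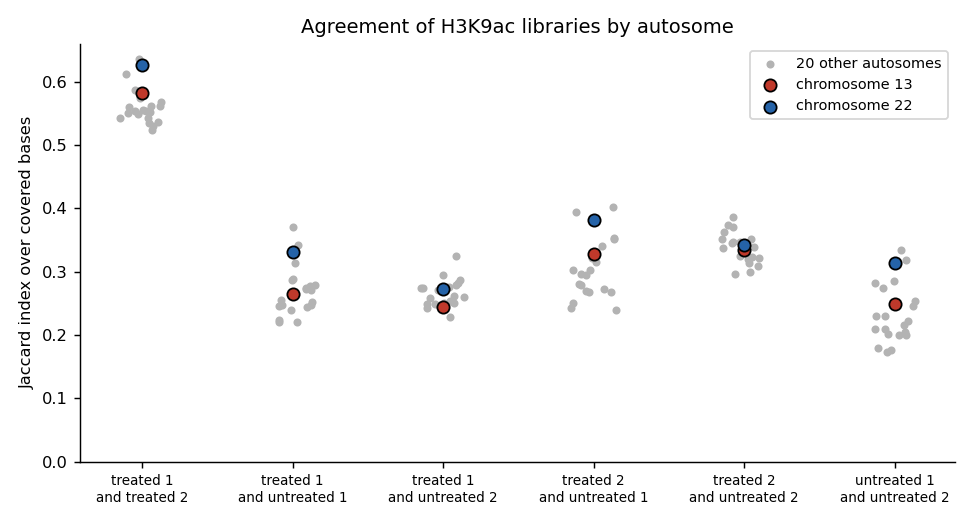
Jaccard index over covered bases (vertical axis) for each of the 6 pairs of H3K9ac libraries (horizontal axis), with 1 point per autosome. Chromosomes 13 and 22 lie at 0.583 and 0.626 for the treated pair and at 0.249 and 0.314 for the untreated pair, inside the range of the 20 other autosomes in each pair.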

How the data were processed

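The deposited data were 10 interval lists without headers, 4 of H3K9ac peaks and 4 of H3K9me2 islands (single libraries) and 2 reproducible H3K9ac sets (1 per condition). The authors' score of a library peak or island was used as a rank within its list and to count how many intervals share a score. As a rank served also the value the authors deposited for a reproducible region, taken as −log10 of its irreproducible discovery rate since it starts at 1.301. Hg19 is the build, and Trimmomatic 0.32, BWA 0.7.5, Picard, MACS2 and SICER the tools, in the submitters' processing notes. The sources used here do not give their settings or the depths. Other deposited columns were positions, here counted from 1.

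Overlap meant at least 1 bp. Merged regions are the union of both sets. Python 3.11.15, pandas 2.3.3, numpy 2.4.6 and SciPy 1.17.1 handled the intervals. Covered shares over all chromosomes were fitted in R 4.3.3 (limma 3.58.1, spread moderated along a trend in the mean). Both steps were tested on simulated data.

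The chromosomes, lists and tests were chosen with earlier results of these data known. Named regions come from the 5 widest, the 5 highest-scoring and the 5 highest-scoring gained per chromosome, and the 3 shared regions with the largest gain in cover. Gene names, gene lists, marker genes of the line and region sequences need an hg19 annotation or genome and were not analysed here. Labels number the replicates alike in both conditions without linking a number to a day or batch.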

Additional observations from a re-analysis of the deposited data

How the results depend on the processing

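Differences in cover relative to the other autosomes stayed positive with equal numbers of top peaks (0.20 and 0.37 on chromosomes 13 and 22), against the 3 autosomes nearest in peak density (0.18 and 0.54, where that of chromosome 13 had been 0.30) and without any 1 library; all 20 other autosomes had islands in every list, so that alternative left the values as they were. Results in single-library number and width were less stable. With the 20000 top peaks per library, the peak number on chromosome 13 differed by 55.5 and the median width on chromosome 22 by 552 bp, and with equal numbers of top peaks that width differed by 21.5 bp and the log2 relative peak number of chromosome 13 by −0.046. Leaving out 1 library gave −567 to 235 peaks on chromosome 13, −89 to 573 on chromosome 22, −2.5 to 44 bp in median width on chromosome 13 and −0.042 to 0.16 in its log2 relative peak number. The cause was not tested.

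Gained regions numbered 158 and 207 on chromosomes 13 and 22 when at least 50% cover counted as shared (45.1% and 42.5%, against 37.7% of all). They numbered 34 and 50 when peaks within 1000 bp did (9.71% and 10.3%, against 9.37% of all). With the treated set reduced to the size of the untreated one there were 8 and 17 (3.23% and 5.12%, against 2.62% of all). Judged from the untreated set there were 200 and 309 (57.1% and 63.4%, against 45.1% of all). Without 1 untreated library there were 62 to 93 and 98 to 153 (17.7% to 26.6% and 20.1% to 31.4%, against 18.7% to 27.8% of all). Judged from the treated set, 1 of 158 untreated regions was lost on chromosome 13 (0.633%) and 0 of 188 on chromosome 22, against 7.28% of all. With equal numbers of top peaks the Jaccard index of the untreated libraries was 0.30 on chromosome 13 and 0.365 on chromosome 22. That of the treated libraries was 0.603 on chromosome 13 and 0.651 on chromosome 22. For peaks inside reproducible regions the mean of the 2 libraries' median score percentiles was 82.6 in treated and 89.0 in untreated cells on chromosome 13 and 81.7 and 87.6 on chromosome 22, against 54.9, 55.4, 58.2 and 64.6 for all peaks. The higher-scoring part of each island list kept 3 of the 8 islands.

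Limma called 236 merged regions of both chromosomes higher, but 0 of those in both sets fitted alone and 0 with quantile normalization (13 higher and 9 lower at an unadjusted p under 0.05), and 1 to 132 without 1 library, where a lone library is assumed to vary like the others. With the replicate number as a term (replicate block) it called 695 (83.5%, against 74.1% of all merged regions). The deviations of same-numbered libraries had a correlation of −0.11 over 21944 regions, and with the numbers crossed, a setting added after the data were seen, it called 130 (15.6%, against 14.6% of all). The replicate block gave the same mean differences in number, cover and width, with a smallest p of 0.5. Depth is unknown, so no value could be given a limit from it.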
